A study of Mus musculus with 3 samples.

Results

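Wnt pathway genes were examined in mouse embryonic stem (ES) cells in which the nuclear pore protein NUP153 had been depleted. The members were taken by gene symbol as Wnt ligands, R-spondins, secreted Wnt inhibitors, Frizzled receptors, Lrp co-receptors, Lgr receptors of R-spondins, the cytoplasmic factors Apc, Axin1, Axin2, Ctnnb1, Nkd1 and Nkd2, and the 4 TCF/LEF transcription factors. The rule matched 56 of the 24421 genes with deposited counts, and used no measured value. They comprised 19 Wnt ligands, 4 R-spondins, 8 secreted inhibitors, 10 Frizzled receptors, 2 Lrp co-receptors, 3 R-spondin receptors, 6 cytoplasmic factors and 4 TCF/LEF factors.

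Total RNA was sequenced from undifferentiated female EL16.7 ES cells of an F2:129S1/CastEiJx 129S1 background, after depletion of ribosomal RNA. All cells were grown in serum with LIF on γ-irradiated DR4 mouse embryonic fibroblasts, were transduced with lentivirus, and were selected with puromycin at 2 µg/ml for 2 days, the control included. The control carried a scramble shRNA and is labelled wild type, and the knockdown cells carried NUP153 shRNA-1 (NUP153 KD-1) or NUP153 shRNA-2 (NUP153 KD-2). There was 1 library per shRNA, so differences between libraries have no replicate check, and no source used here says that the fibroblasts were removed before RNA was extracted.

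Wnt ligands are secreted lipid-modified proteins that bind a Frizzled receptor together with Lrp5 or Lrp6. Binding stops the destruction complex of Axin, Apc and GSK3 from degrading β-catenin, which then enters the nucleus and acts with TCF/LEF factors on target genes. R-spondins amplify the signal through Lgr receptors, and Dkk and Sfrp proteins are secreted antagonists that bind the Lrp co-receptors or the Wnt proteins. In mouse ES cells, β-catenin relieves repression by Tcf7l1 and favours self-renewal.

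The control, KD-1 and KD-2 libraries held 72344726, 85258834 and 69839336 reads on genes, and the members took 0.158%, 0.163% and 0.179% of them. Nup153 had 27870, 16451 and 11126 reads in control, KD-1 and KD-2, which was lower than control by 0.99 and 1.43 on the log2 scale. All 20 markers of feeder fibroblasts were below control in KD-1 (median log2 ratio -0.57) and above it in KD-2 (median 0.78), and their summed level was 1662, 1068 and 2442 RPKM in the 3 libraries. S100a4 alone made up 1083, 678 and 1383 RPKM of this sum. The 15 markers of pluripotent ES cells had medians of 0.19 and -0.29, with a summed level of 3589 RPKM in control, 4129.7 in KD-1 and 2534 for KD-2. Dppa5a alone made up 1724, 2194 and 1159 RPKM of this sum. No marker of either list was at 0. In bulk RNA, fewer cells of a type and less RNA per cell cannot be told apart.

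Over the 3 libraries, 50 members averaged at least 10 reads and 36 at least 100. Ratios between 2 libraries are given on the log2 scale from reads scaled by upper quartile, with a 95% interval that covers counting error only. A ratio of 1.5-fold or more in either direction (0.585 on the log2 scale) is called past 1.5-fold, where the mean over the libraries reached 10 reads. With 1 library per group there is no test of such a ratio. Below, 3 values of a gene stand for control, KD-1 and KD-2 in this order, and pairs of ratios for KD-1 and then KD-2, each against control.

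In KD-1, 5 members were past 1.5-fold higher than control (Wnt7b, Wnt8a, Rspo1, Sfrp5 and Lef1) and 4 were past it lower (Wnt10a, Wnt11, Rspo2 and Dkk3). That is 10% and 8% of the 50 members, against 8.63% higher and 5.62% lower (14.2% in either direction) among all 16670 genes with as many reads. With other scalings the split was 4 higher and 6 lower (TMM), 4 and 7 (DESeq2 size factors) or 5 and 5 (total reads), and for all genes it went from 1438 and 937 to 1375 and 990, 1216 and 1146, or 1406 and 959. Lef1 left the higher group under TMM and DESeq2 size factors, and Fzd7, Wnt3 or Fzd2 joined the lower group.

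In KD-2, 20 members were past 1.5-fold higher and 0 were past it lower. That is 40% of the members, beside 17.1% of all genes higher and 10.2% lower (27.3% in either direction). The 20 were 9 Wnt ligands, Rspo2, Rspo3, Dkk2, Dkk3, 5 Frizzled receptors, Lgr5 and Lgr6. All 20 remained past 1.5-fold under TMM, DESeq2 size factors and total reads, and Lrp5 joined them under total reads. The counting intervals of all 20 left out no change, as did those of 8 of the 9 members past 1.5-fold in KD-1, Wnt8a being the exception. The median log2 ratio of the 50 members was 0.07 (KD-1) and 0.34 (KD-2), beside 0.02 and -0.02 over all genes. The 4 members past 1.5-fold lower in KD-1 (8%) were all among the 20 past it higher in KD-2, an order that 2.09% of all genes had, while 0 members and 0.306% of all genes had the reverse.

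**Figure D1:**
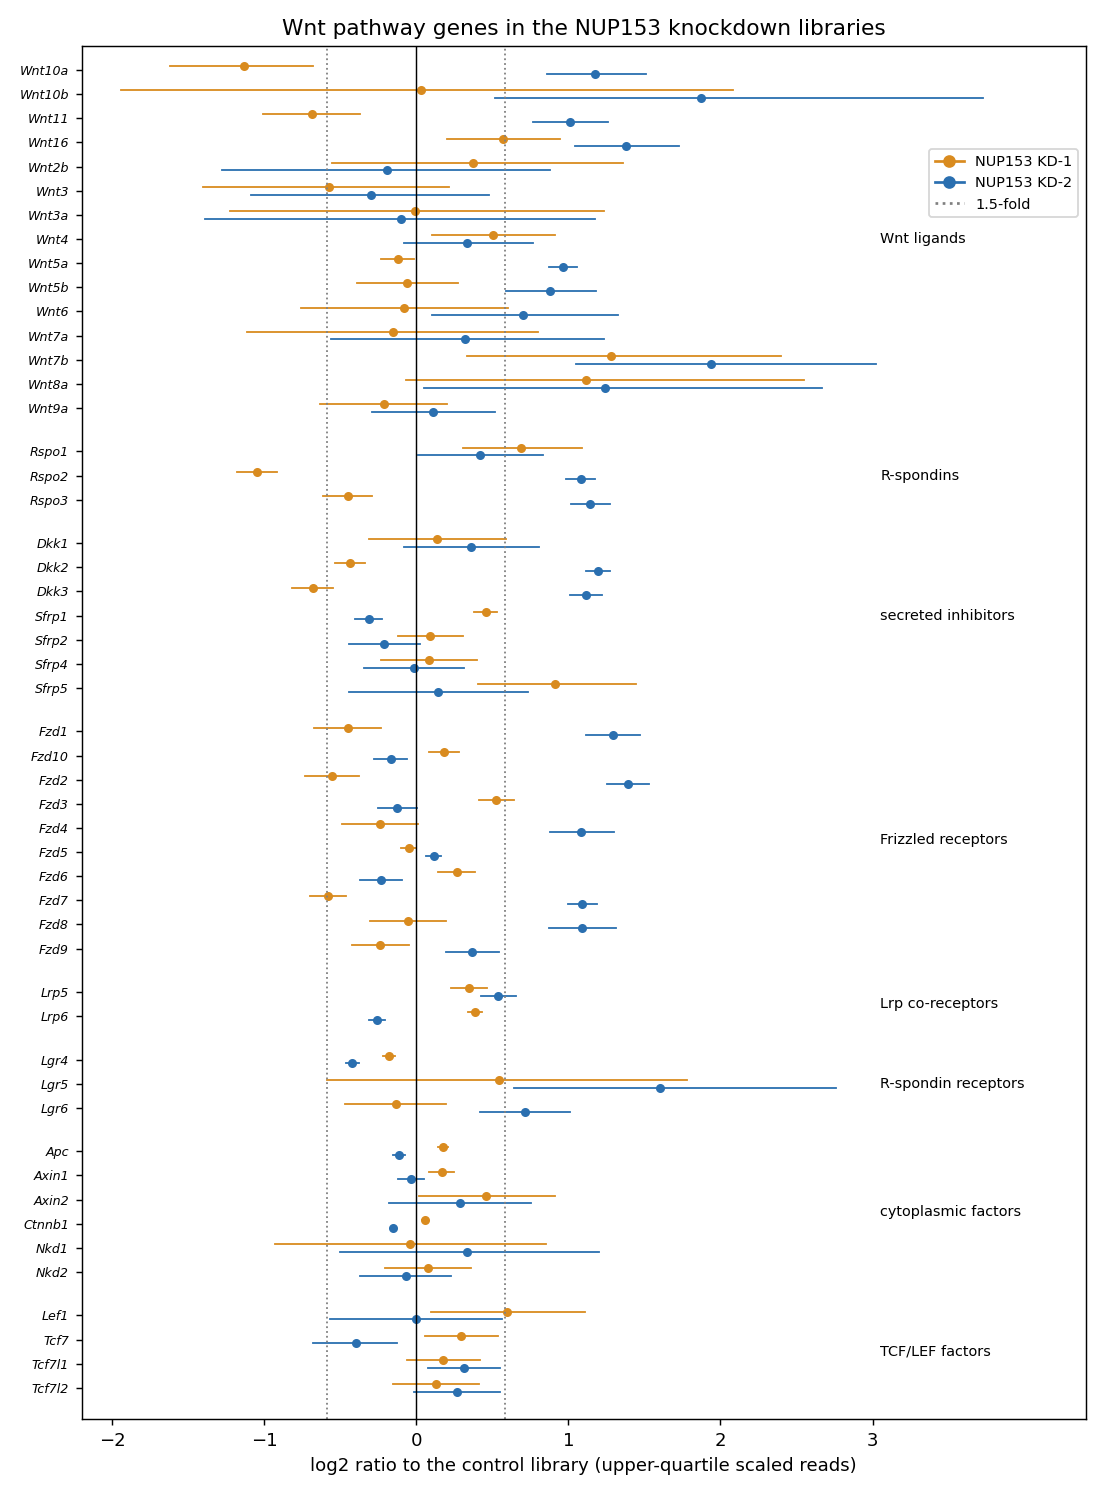
The log2 ratio of each of the 50 members with a mean of at least 10 reads is plotted for NUP153 KD-1 (orange) and NUP153 KD-2 (blue) against the control library, by role. Points are ratios of upper-quartile scaled reads, lines are 95% counting intervals and dotted lines mark 1.5-fold; 20 members lie past the right dotted line in KD-2 and 5 in KD-1.

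Between the knockdown libraries, 6 members were past 1.5-fold towards KD-1, and 20 towards KD-2. Of all genes, 13.9% lay past it on the KD-1 side and 16.1% on the KD-2 side (30.1% in either direction). With other scalings the split was 5 and 20 (TMM), 3 and 20 (DESeq2 size factors) or 2 and 21 (total reads). The numbers of all genes moved as well, from 2322 and 2691 to 1879 and 2964, 1555 and 3172, or 1229 and 3525. The 6 higher in KD-1 were Sfrp1, Sfrp5, Fzd3, Lrp6, Lef1 and Tcf7. Lef1 lost this place under all 3 other scalings, Fzd3 and Lrp6 under DESeq2 size factors and total reads, and Tcf7 under total reads. The 20 higher in KD-2 were those past 1.5-fold higher in KD-2 against control, except Wnt8a, and Fzd9.

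Among the Wnt ligands, Wnt5a, which acts mainly through the β-catenin-independent branch, was the most abundant per length, with a level of 2.50, 2.30 and 4.89 RPKM in the control, KD-1 and KD-2 libraries. It took 38.6%, 39.1% and 40.5% of the summed ligand level, which was 6.49, 5.89 and 12.1 RPKM. Wnt5a had 1369, 1474 and 2877 reads, a log2 ratio of -0.12 in KD-1 (-0.23 to -0.01), and one of 0.96 in KD-2 (0.87 to 1.06). KD-2 was thus the high library, while KD-1 and control lay within 1.5-fold of each other.

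The related ligand Wnt5b had 145, 163 and 288 reads, with ratios of -0.06 (-0.39 to 0.27) and 0.88 (0.59 to 1.18). Wnt16 had 97, 169 and 272 reads, with ratios of 0.57 (0.20 to 0.95) and 1.38 (1.04 to 1.73), so that both knockdown libraries lay above control. Wnt10a, a ligand of the β-catenin branch, had 113, 60 and 276 reads. Its ratios were -1.13 (-1.62 to -0.68) and 1.18 (0.86 to 1.51). Wnt11, a ligand known for cell movements in gastrulation, had 199, 145 and 432 reads, with ratios of -0.68 (-1.004 to -0.37) and 1.01 (0.77 to 1.26). For both genes control lay between the knockdown libraries.

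The remaining ligands include the scarcest. Wnt7b had 12, 35 and 51 reads and was higher in both knockdown libraries, at 1.28 (0.34 to 2.40) and 1.94 (1.05 to 3.02), and is named here after its values were seen. Reads of Wnt7b could not be separated from those of AU022754 on the opposite strand, which shares 324 exonic bases with it and had 20, 31 and 30 reads. Wnt8a, also singled out after its values were seen, had 8, 21 and 21 reads and ratios of 1.12 (-0.07 to 2.55) and 1.24 (0.05 to 2.67). Wnt10b and Wnt6 were the remaining ligands past 1.5-fold in KD-2, with 5 to 65 reads per library. Wnt2b, Wnt3, Wnt3a, Wnt4, Wnt7a and Wnt9a lay within 1.5-fold in all 3 comparisons, at ratios of -0.57 to 0.50 against control.

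Rspo2 and Rspo3 were lowest in KD-1 and highest in KD-2, and Rspo1 was not. Rspo2 had 1323, 750 and 3015 reads and was the highest R-spondin in control, with levels of 3.70, 1.79 and 7.84 RPKM. Its ratios were -1.05 (-1.18 to -0.92) and 1.08 (0.99 to 1.18), so KD-2 was 2.12-fold above control and KD-1 was below it. Rspo3 had 701, 601 and 1671 reads, with ratios of -0.45 (-0.61 to -0.29) and 1.15 (1.02 to 1.28). Rspo1 instead had 86, 163 and 124 reads and was highest in KD-1, at 0.69 (0.31 to 1.09) beside 0.42 (0.01 to 0.83) in KD-2, although the interval of KD-1 against KD-2 (-0.07 to 0.62) held no difference. The summed R-spondin level was 7.60, 5.204 and 15.9 RPKM.

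Among the R-spondin receptors, Lgr4 took 98.7%, 98.6% and 97.1% of the summed level of the 3 Lgr genes. It had 10362, 10747 and 8347 reads, with ratios of -0.18 (-0.21 to -0.14) and -0.42 (-0.46 to -0.38), both within 1.5-fold. Lgr6 had 151, 161 and 267 reads and was past 1.5-fold in KD-2 at 0.71 (0.42 to 1.01), with -0.14 (-0.47 to 0.19) in KD-1. Lgr5, a marker of epithelial stem cells, was also past it in KD-2 but had 11, 19 and 37 reads. The receptor with nearly all of the reads thus had the lowest ratio of the 3 in KD-2, and the receptors past 1.5-fold there were the scarce ones.

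The inhibitors with the most reads were Dkk2, Dkk3 and Sfrp1. Dkk2 had 1826, 1581 and 4511 reads, with ratios of -0.44 (-0.53 to -0.34) and 1.20 (1.12 to 1.28). Dkk3, a divergent member of the Dickkopf family, had 1079, 788 and 2520 reads, with ratios of -0.68 (-0.82 to -0.55) and 1.12 (1.01 to 1.22). Sfrp1, which binds Wnt proteins, had 2247, 3612 and 1948 reads, with ratios of 0.46 (0.38 to 0.53) and -0.31 (-0.40 to -0.22), and a ratio of KD-1 to KD-2 of 0.77 (0.69 to 0.85). Dkk2 and Dkk3 were thus lowest in KD-1 and highest in KD-2, and Sfrp1 had the opposite order.

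Sfrp1 took 32.7%, 45.5% and 16.7% of the inhibitor level in control, KD-1 and KD-2, and Dkk2 took 31.4%, 23.5% and 45.7%. Sfrp5, a low member named after its values were seen, had 47, 104 and 56 reads and a ratio of 0.91 (0.41 to 1.45) in KD-1. Dkk1, which is a target of the pathway, had 76, 98 and 105 reads, with ratios of 0.14 (-0.31 to 0.59) and 0.36 (-0.08 to 0.80). Sfrp2 and Sfrp4 lay within 1.5-fold in all 3 comparisons.

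**Figure D2:**
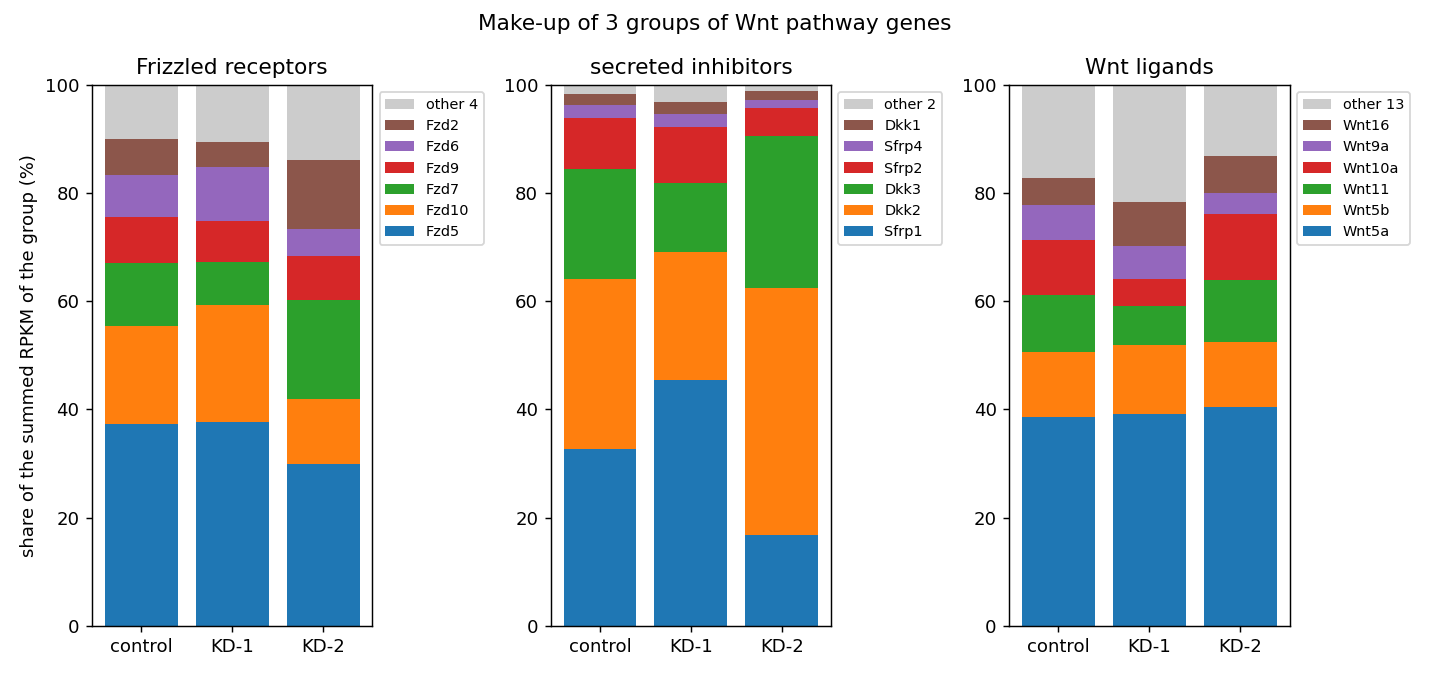
Each bar shows the share (%) of the summed RPKM of the Frizzled receptors, the secreted inhibitors and the Wnt ligands that each gene took in the control, NUP153 KD-1 and NUP153 KD-2 libraries, with the 6 highest genes in control coloured and the others in grey. The Sfrp1 share of the inhibitors was 45.5% with KD-1 against 16.7% with KD-2, while Wnt5a took 38.6% to 40.5% of the ligands.

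The 10 Frizzled receptors, which bind Wnt ligands at the cell surface, divided into 5 past 1.5-fold higher in KD-2 and 5 within it, beside 17.1% of all genes higher there. Fzd2 had 586, 468 and 1657 reads, with ratios of -0.55 (-0.73 to -0.38) and 1.39 (1.26 to 1.53). Fzd1 had 364, 312 and 960 reads, with ratios of -0.45 (-0.67 to -0.23) and 1.29 (1.12 to 1.47). Fzd7 had 1283, 1006 and 2947 reads, with ratios of -0.58 (-0.70 to -0.46), just inside 1.5-fold, and 1.09 (1.00 to 1.19). In all 3 genes KD-1 was the lowest library and KD-2 the highest.

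Fzd4 had 266, 264 and 609 reads and Fzd8 had 250, 282 and 574 reads. Both were at 1.09 in KD-2 (0.88 to 1.30 for Fzd4 and 0.88 to 1.31 for Fzd8), and at -0.24 and -0.05 in KD-1. Fzd9, with 472, 469 and 656 reads, lay within 1.5-fold of control in both, at -0.24 and 0.37, but KD-2 was past 1.5-fold above KD-1, whose ratio to KD-2 was -0.61 (-0.78 to -0.43). Fzd3 had 972, 1641 and 961 reads and was highest in KD-1, with a ratio of KD-1 to KD-2 of 0.65 (0.53 to 0.77). Fzd5, the highest Frizzled receptor per length at 13.0, 12.6 and 14.1 RPKM, had 6289, 7122 and 7337 reads and ratios of -0.05 and 0.12. Its share of the Frizzled level was 37.3%, 37.6% and 29.95%. Fzd6 and Fzd10 lay within 1.5-fold in all 3 comparisons.

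**Figure D3:**
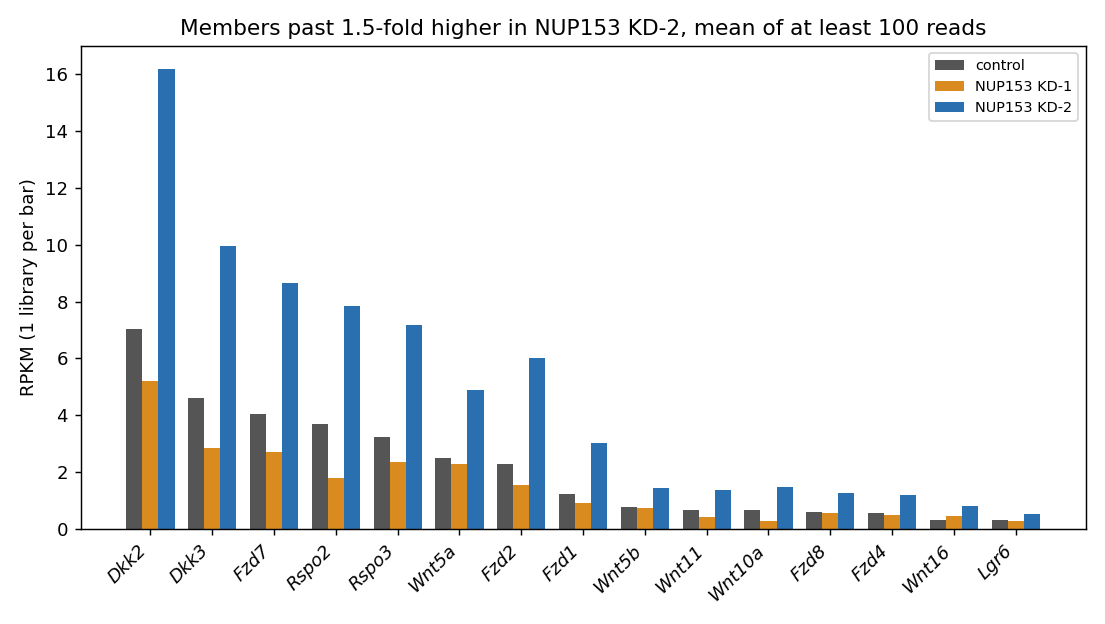
Level (RPKM, 1 library per bar) of the members past 1.5-fold higher in NUP153 KD-2 with a mean of at least 100 reads, in control (grey), NUP153 KD-1 (orange) and NUP153 KD-2 (blue). The blue bar is the highest for every gene shown, and Dkk2 reaches 16.2 RPKM against 7.05 in control and 5.21 with KD-1.

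The co-receptors and the cytoplasmic and nuclear factors, which relay the signal from the membrane to target genes, stayed within 1.5-fold of control in both knockdown libraries, except Lef1 in KD-1. Most genes did so too, with 14.2% of all genes past it in KD-1 and 27.3% in KD-2. Lrp6 had 6619, 10127 and 5962 reads, with ratios of 0.38 (0.34 to 0.43) and -0.26 (-0.31 to -0.21), and KD-1 was past 1.5-fold above KD-2 at 0.64 (0.60 to 0.69), though not with DESeq2 size factors or total reads. Lrp5 had 1000, 1491 and 1567 reads, with ratios of 0.35 (0.23 to 0.46) and 0.54 (0.43 to 0.66). The co-receptors therefore differed in KD-2, where Lrp5 was above control and Lrp6 was below it by less than 1.5-fold.

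Ctnnb1, which encodes β-catenin, had 58740, 71520 and 57003 reads and took 89.3%, 88.5% and 88.8% of the level of the cytoplasmic factors. Its ratios were 0.06 (0.04 to 0.07) and -0.15 (-0.17 to -0.13). These ratios give no direction, since the first was -0.01 with DESeq2 size factors and the second was 0.01 with total reads. Its exons share 759 bases with Ulk4 on the opposite strand, which had 93 to 113 reads. Apc, the scaffold of the destruction complex, had 11298, 14962 and 11257 reads, with ratios of 0.18 and -0.11. Axin1 had 2270, 2985 and 2389 reads, with ratios of 0.17 and -0.03. In KD-2 the Apc ratio was above 0 with total reads, and that of Axin1 with each other scaling. Axin2, a scaffold that is itself a target of β-catenin, had 70, 113 and 92 reads, with ratios of 0.46 (0.02 to 0.91) and 0.29 (-0.18 to 0.76). None of the 6 cytoplasmic factors was past 1.5-fold in any of the 3 comparisons. Among all genes 14.2% were past it in KD-1, 27.3% in KD-2 and 30.1% between the knockdown libraries. With 6 genes this is not read as a difference.

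Tcf7 was the TCF/LEF factor with the highest level per length in control, with 1.34, 1.64 and 1.01 RPKM in the 3 libraries. It had 245, 353 and 200 reads, ratios of 0.30 (0.06 to 0.54) and -0.40 (-0.68 to -0.12), and a ratio of KD-1 to KD-2 of 0.70 (0.44 to 0.96). Tcf7l1, the repressor known from ES cells, had 258, 342 and 345 reads, with ratios of 0.18 (-0.06 to 0.42) and 0.31 (0.08 to 0.55). Gm15401 on the opposite strand shares 179 exonic bases with Tcf7l1 and had 284 to 483 reads, so reads of the pair could not be separated. Tcf7l2 had 188, 241 and 244 reads, with ratios of 0.13 and 0.27. Lef1 had 53, 94 and 57 reads, with ratios of 0.59 (0.10 to 1.11) and 0.00 (-0.57 to 0.57). Tcf7l1 rather than Tcf7 took the largest share of the TCF/LEF level in KD-2, at 44.3% against 38.4%.

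Some Wnt genes lie close together in the genome. On chromosome 1 (GRCm38, GENCODE M21), Wnt6 spans chr1:74771892-74785322 and Wnt10a spans chr1:74791516-74804179, both on the plus strand. Wnt6 had 37, 41 and 65 reads with a ratio of -0.08 (-0.76 to 0.60) in KD-1, where Wnt10a was at -1.13, and both were past 1.5-fold in KD-2. On chromosome 11, Wnt3a (chr11:59248033-59290752, minus strand) and Wnt9a (chr11:59306928-59333552, plus strand) were both within 1.5-fold of control.

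Of the 6 members with a mean under 10 reads (Wnt1, Wnt2, Wnt8b, Wnt9b, Rspo4 and Dkk4), Wnt2 had the most, with 12, 4 and 13 reads. Rspo4 had 0 reads in KD-2, which allows up to 3, and 3 and 2 reads in control and KD-1. The Wnt2 ratio was -1.68 in KD-1, with an interval (-3.90 to -0.09) that left out no change. The counts of members past 1.5-fold given here leave these 6 out.

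Genes that act with the members were counted from lists of the rest of the pathway. Of 16 tested regulators of Wnt secretion and of the membrane, 3 were past 1.5-fold higher and 3 lower in KD-1, and 6 higher and 0 lower in KD-2. That is 18.75% in each direction in KD-1, beside 8.63% and 5.62% of all genes, and 37.5% higher in KD-2, beside 17.1%. Wls, the carrier that takes Wnt proteins to the cell surface, had 5815, 3773 and 10013 reads, with ratios of -0.85 (-0.91 to -0.79) and 0.68 (0.63 to 0.72). Apcdd1, a membrane inhibitor of Wnt signals, had 320, 659 and 473 reads, with ratios of 0.81 and 0.46. Cthrc1, a secreted Wnt cofactor of mesenchymal cells, had 119, 107 and 219 reads, with ratios of -0.38 and 0.77.

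Of 18 cytoplasmic transducers, 2 were past 1.5-fold higher and 0 lower in KD-1, and 5 higher and 1 lower in KD-2. The shares were 11.1% higher in KD-1, near the 8.63% of all genes, and 27.8% higher and 5.56% lower in KD-2, beside 17.1% and 10.2%. Dvl3, a Dishevelled protein that couples Frizzled receptors to the destruction complex, had 174, 366 and 350 reads, with ratios of 0.84 (0.58 to 1.11) and 0.90 (0.63 to 1.17). Dvl1, of the same family, had 1920, 2154 and 3275 reads, with ratios of -0.06 and 0.66. Apc2 had 76, 85 and 169 reads, with ratios of -0.07 and 1.04. Dvl3 was thus higher in both knockdown libraries, and Dvl1 and Apc2 in KD-2.

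Of 10 tested β-catenin target genes outside the members, 1 was past 1.5-fold higher and 1 lower in KD-1, and 2 higher and 1 lower in KD-2. The targets Axin2, Lef1, Nkd1, Dkk1 and Lgr5 are members and are left out of this count. Of these, Lef1 was past 1.5-fold higher in KD-1 and Lgr5 in KD-2. Myc had 837, 1493 and 1070 reads, with ratios of 0.61 (0.48 to 0.73) and 0.25 (0.12 to 0.38). Ccnd1, which encodes cyclin D1, had 20534, 15068 and 29713 reads, with ratios of -0.68 (-0.71 to -0.64) and 0.43 (0.40 to 0.45). Bambi, a TGFβ pseudoreceptor, had 773, 1198 and 922 reads, with ratios of 0.40 and 0.15. These 3 lay within 1.5-fold in KD-2. The targets past it there averaged under 100 reads and are named for this count: Sp5 had 9, 15 and 28 reads and a KD-2 ratio of 1.48 (0.41 to 2.80), T had 33, 34 and 55 reads and a ratio of 0.62 (-0.02 to 1.30), and Cdx4 had 39, 39 and 23 reads and a ratio of -0.85 (-1.68 to -0.09). The shares of 10% higher and 10% lower in KD-1, and 20% higher and 10% lower in KD-2, lay near those of all genes, apart from the lower side in KD-1 (5.62%), where the count was 1 gene.

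The members higher in KD-2 were set beside the fibroblast markers as a description. The 20 members were chosen on their ratio of KD-2 to control, so their place in a range of KD-2 ratios was largely fixed by that choice, and the other ratios share a library with it. In KD-2 the 20 markers had log2 ratios of 0.35 (S100a4) to 1.87 (Loxl1), and 18 of the 20 members lay in this range, the other 2 above it. In KD-1 the markers had ratios of -2.01 (Postn) to -0.08 (Fn1), and 13 of the 20 members lay in this range and 7 above it. Between KD-1 and KD-2 all 20 markers were past 1.5-fold lower in KD-1, and 19 of the 20 members lay in their range. Of the other 30 members, 4 in KD-2, 5 in KD-1 and 0 between the knockdown libraries lay in the fibroblast marker range. In the same order, 11, 9 and 1 of the 20 members and 30, 27 and 29 of the other 30 lay in the range of the 15 pluripotency markers. In KD-2 and in KD-1 the pluripotency range thus held members of both groups. Between the knockdown libraries it held 1 of the 20, which were chosen on KD-2, a library that this ratio shares. The upper end of that range in KD-2 was Utf1 alone (1.17, against 0.22 for the next marker, Esrrb), and without Utf1, left out after the data were seen, the counts were 0, 7 and 0 of the 20 and 20, 26 and 20 of the other 30. The part of the fibroblast RNA in these ratios was not tested.

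**Figure D4:**
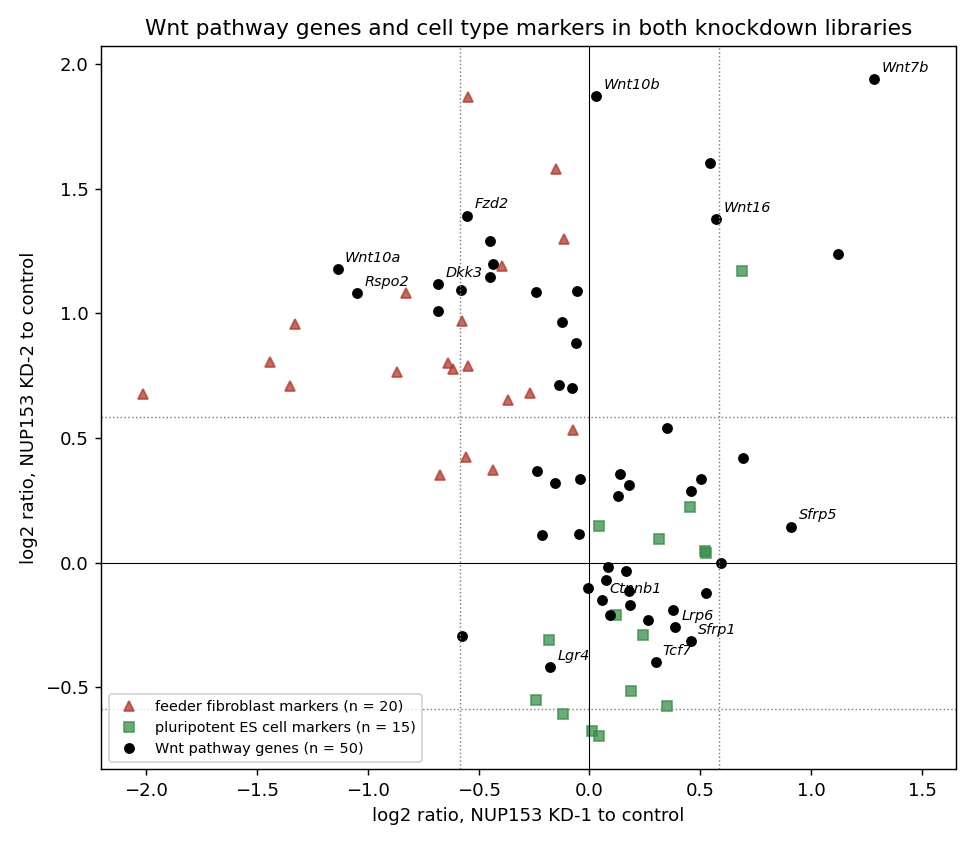
Log2 ratio of NUP153 KD-1 to control (horizontal) and of NUP153 KD-2 to control (vertical), both against the same control library, for 50 Wnt pathway genes (black), 20 feeder fibroblast markers (red triangles) and 15 pluripotency markers (green squares). Dotted lines mark 1.5-fold; all 20 fibroblast markers lie in the upper left quadrant, where Rspo2, Wnt10a, Fzd2 and Dkk3 also lie.

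Ctnnb1, Apc, Axin1, Lgr4, Lrp6 and Fzd5 are among these other 30 members. Wnt7b and Wnt16, past 1.5-fold higher in KD-2, were also above control in KD-1 with intervals that left out 0 (0.34 to 2.40 and 0.20 to 0.95), where every fibroblast marker was below 0. Wnt8a (-0.07 to 2.55), Lgr5 (-0.58 to 1.78) and Wnt10b (-1.94 to 2.08) had positive KD-1 ratios whose intervals held 0, and that of Wnt10b, 0.03 from 5 and 6 reads, was -0.03 with DESeq2 size factors. Summed levels of 10 primitive endoderm markers were 46.6, 51.6 and 60.1 RPKM in control, KD-1 and KD-2. Pdgfra, which is also in the fibroblast list, made up 9.17, 7.62 and 14.7 RPKM of these. Lamb1 made up 19.6, 22.0 and 25.3 RPKM, Lama1 10.5, 10.5 and 7.69, and Col4a1 6.05, 9.85 and 10.6. Among Gata4, Gata6, Sox7, Sox17 and Foxa2 the highest value was 0.548 RPKM (Sox7 in KD-1). The 8 mesendoderm markers summed to 1.83, 2.22 and 2.79 RPKM, of which Eomes made up 0.857, 1.36 and 1.30. Of these 8, 4 averaged under 10 reads, and the other 4 had median ratios of -0.13 in KD-1, with 3 below 0, and 0.61 in KD-2, with 3 past 1.5-fold higher. Of the 9 primitive endoderm markers tested, 2 were past 1.5-fold higher in KD-1, against 4 in KD-2. The 4 were Gata6, Dab2, Pdgfra and Col4a1. These shares were 22.2% and 44.4%, where 8.63% and 17.1% of all genes were higher. For the mesendoderm markers the KD-2 share was 75%, beside the same 17.1%. With so few genes, neither list is read as a difference from all genes. The part of these cell types in the members' ratios was not tested.

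Both knockdown libraries were then compared as 1 group with control. With edgeR's quasi-likelihood test, 0 of the 56 members were called after Benjamini-Hochberg adjustment, where the background was 4 of 21164 genes (0.0189%). At an unadjusted p under 0.05 there was 1 member, Wnt7b (log2 fold change 1.69, unadjusted p = 0.0244, adjusted p = 1.00), beside 1.38% of all genes, and the DESeq2 Wald test called 0 members at either level. The spread of this test comes from KD-1 and KD-2 with 1 residual degree of freedom, and the lone control library is assumed to vary like them. On simulated data of this design the quasi-likelihood test called 5 of 100 genes changed 2-fold and 53 of 100 changed 4-fold, with 2 false calls. At such counts a 2-fold difference would mostly be missed. The changed genes were drawn from those averaging at least 100 reads, and all genes were given the same spread (dispersion 0.084). These rates therefore do not cover the scarcer members.

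The promoters of members were read from RefSeq (GRCm38.p6), from 250 bases before to 50 bases after the start. There were 46 promoters of 37 members. The core TCF/LEF motif CTTTGA was searched on both strands and matched 5 of 46 member promoters (10.9%), against 5257 of the 32851 mouse promoters in the table, at Dkk1, Fzd1, Lef1, Wnt11 and Wnt5b. The GC box GGGCGG, bound by Sp factors, matched 33 of 46 (71.7%), against 35.7% of all promoters. The AP-1 motif TGANTCA (7.81% of all promoters) and the TEAD motif CATTCC (14.7%) matched 1 and 2 member promoters.

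Promoters of 3 members past 1.5-fold higher in KD-2 (Wnt11, Dkk2 and Fzd7) and of the targets Dkk1 and Axin2, which lay within 1.5-fold, are shown to set these groups side by side. All are from GRCm38.p6, 5′ to 3′ on the strand of the gene. Capitals mark the TCF/LEF core at Wnt11 (50 bases before the start) and Dkk1 (174 and 117 bases before it), and the GC box at Dkk2 (60 and 17 bases before it), Fzd7 (7 matches) and Axin2 (2 matches). Only 1 motif is marked per sequence, and Wnt11 also holds 4 GC boxes that are left in lower case. Wnt11 lies at chr7:98834862-98835161 (plus strand), Dkk2 at chr3:132085042-132085341 (plus), Fzd7 at chr1:59481897-59482196 (plus), Dkk1 at chr19:30549447-30549746 (minus) and Axin2 at chr11:108920099-108920398 (plus).
Wnt11: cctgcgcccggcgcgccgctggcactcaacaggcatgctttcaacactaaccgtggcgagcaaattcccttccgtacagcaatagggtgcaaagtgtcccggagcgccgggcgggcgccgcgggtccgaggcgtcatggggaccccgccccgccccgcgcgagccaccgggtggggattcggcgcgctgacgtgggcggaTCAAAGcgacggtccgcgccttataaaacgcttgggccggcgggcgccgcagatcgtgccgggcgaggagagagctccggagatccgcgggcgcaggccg
Dkk2: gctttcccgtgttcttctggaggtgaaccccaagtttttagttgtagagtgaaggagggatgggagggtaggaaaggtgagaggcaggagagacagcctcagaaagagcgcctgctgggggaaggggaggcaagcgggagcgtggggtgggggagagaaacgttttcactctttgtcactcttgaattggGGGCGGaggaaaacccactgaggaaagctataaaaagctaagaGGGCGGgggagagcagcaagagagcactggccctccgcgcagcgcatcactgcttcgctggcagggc
Fzd7: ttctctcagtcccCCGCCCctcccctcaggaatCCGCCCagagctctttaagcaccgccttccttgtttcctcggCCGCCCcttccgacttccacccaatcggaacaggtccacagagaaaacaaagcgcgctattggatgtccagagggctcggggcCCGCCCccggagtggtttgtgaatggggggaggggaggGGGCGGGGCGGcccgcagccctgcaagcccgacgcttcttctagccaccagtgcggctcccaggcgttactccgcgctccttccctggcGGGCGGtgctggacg
Dkk1: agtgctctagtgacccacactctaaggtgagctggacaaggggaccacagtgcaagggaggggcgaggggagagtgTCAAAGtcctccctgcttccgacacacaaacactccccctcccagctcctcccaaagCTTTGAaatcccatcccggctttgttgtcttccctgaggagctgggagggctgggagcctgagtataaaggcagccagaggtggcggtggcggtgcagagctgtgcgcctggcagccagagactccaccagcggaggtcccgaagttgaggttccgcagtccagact
Axin2: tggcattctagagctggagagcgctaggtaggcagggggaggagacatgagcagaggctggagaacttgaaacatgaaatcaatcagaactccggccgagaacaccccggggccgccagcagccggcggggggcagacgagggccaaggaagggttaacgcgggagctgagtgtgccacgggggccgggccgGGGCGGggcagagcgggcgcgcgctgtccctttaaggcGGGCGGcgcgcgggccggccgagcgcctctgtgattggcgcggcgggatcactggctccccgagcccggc
The TCF/LEF core was thus found both at a gene past 1.5-fold higher in KD-2 and at one that was not. It was not found at Dkk2, Fzd7 or the target Axin2, nor at the other RefSeq promoter of Wnt11. The starts are those of RefSeq, and the bases after them at Fzd7 and Dkk1 were not found in a GENCODE M21 transcript. A match is a description of letters in this window and does not show binding.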

How the data were processed

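RNA-Seq of 3 libraries, a control, a NUP153 KD-1 and a NUP153 KD-2 library, was used. Per the labels and the submitters' processing notes, 50 bp reads were trimmed with Trim Galore 0.4.1 and mapped with TopHat2 2.1.1 to mm10 (GRCm38). The authors deposited unnormalized whole-number counts of reads by gene symbol, ending in 5 summary lines that hold no gene. Reads assigned to no gene were 21.8%, 24.1% and 21.5% of the counted reads in control, KD-1 and KD-2, and ambiguous reads 1.65%, 1.53% and 1.45%; these were left out of library sizes and tests. The processing notes name HTSeq and the study's methods name featureCounts, and the strand setting is not given in the sources used here, so reads of overlapping genes could not be separated.

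Counts were scaled by upper quartile, and ratios used a pseudocount of 0.5 scaled reads. Intervals are exact Clopper-Pearson intervals of 95%, which cover counting error only. RPKM was computed from the same scaling and the exon lengths of the annotation, and is used for levels of genes and for sums and shares over groups of genes. Genes that averaged 10 reads or more over the libraries were compared, and called at 1.5-fold. Knockdown against control was tested with edgeR 4.0.16 (quasi-likelihood, TMM, Benjamini-Hochberg over 21164 genes, threshold 0.05) and, as an alternative, DESeq2 1.42.0 in R 4.3.3; scripts were tested on simulated data. The p-values measure only the spread between KD-1 and KD-2, which carry different shRNAs. The study's fixed dispersion was not used. Symbols matched the annotation (GENCODE M21) for 23376 genes, and 651 by an older symbol. Levels in each library are given for members with a mean of at least 100 reads past 1.5-fold. They are also given for the signal transduction core and for the highest member of each role, and other members by ranges. Genes outside the members are the 3 that differed most from control in each list among those averaging at least 100 reads. A few others, named after their values were seen, are given where a count, a sum or the end of a range rests on them. The members and lists were chosen with earlier results of these data known. Alternatives were other scalings, minimum reads, folds, pseudocounts and tests, and leaving out each knockdown library. Python 3.11.15 and scipy 1.17.1 were used.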

Additional observations from a re-analysis of the deposited data

Results flagged for a closer look

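4 members lay past 1.5-fold on opposite sides of control in the 2 knockdown libraries, although both shRNAs target the same gene. All 4 lay below control in KD-1 but above it in KD-2, as did 349 of all 16670 genes (2.09%), while 51 genes (0.306%) and 0 members had the opposite order. The log2 ratios to control, KD-1 before KD-2, were -1.13 and 1.18 for Wnt10a, -0.68 and 1.01 for Wnt11, -1.05 and 1.08 for Rspo2, and -0.68 and 1.12 for Dkk3. Each value rests on 1 library per shRNA and on the same control library, and the difference was not tested. The 20 fibroblast markers had the same signs, with medians of -0.57 and 0.78, and their part in these 4 ratios was not tested.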

How the results depend on the processing

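No paired analysis was possible because each group has 1 library. Of the counts against the main values, the number of members higher in KD-1 (5) was 1 at a minimum mean of 100 reads and 2 at 2-fold. The number lower in KD-1 (4) was 7 with DESeq2 size factors, 9 with no minimum above 1 read and 2 at 2-fold. The number lower in KD-2 (0) was 2 with no minimum. The number higher in KD-1 than in KD-2 (6) was 3 with DESeq2 size factors, 2 with total reads and 0 at 2-fold. The 20 higher in KD-2 stayed within 1.5 times under every alternative run. The median of all genes shifted by over 0.1 in KD-2 with total reads (to 0.14 from -0.02), and between the knockdowns with total reads (to -0.04 from 0.12) and DESeq2 size factors (to 0.02). With total reads 3942 genes were higher and 820 lower in KD-2, against 2847 and 1700.

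In the test of both knockdowns, genes called (4) were 2 with upper-quartile scaling, 2 with DESeq2 size factors, 2 with the DESeq2 Wald test and 0 of 16670 at a minimum mean of 10 reads (190 at an unadjusted p under 0.05). The log2 fold change crossed 0, uncalled in all, for Fzd10 (-0.000529 with DESeq2 size factors, -0.000516 with the Wald test), Nkd2 (-0.0103 in both) and Tcf7 (0.000681 at the minimum of 10 reads). Leaving out KD-1 changed the sign for 9 members and leaving out KD-2 for 22, with no test; the cause was not tested. At 1 library per group depth limits the members under 100 reads most.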

Other observations

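Nuclear cofactors of β-catenin and genes of the β-catenin-independent branch were also counted. Of 15 tested cofactors, 0 were past 1.5-fold in KD-1 and 3 were past it higher in KD-2 (20%, beside 17.1% of all genes, and 14.2% past it in either direction in KD-1). Tle2, a Groucho corepressor with under 100 reads on average, named because it is among the 3, had 27, 25 and 101 reads in control, KD-1 and KD-2, with log2 ratios of -0.33 (95% counting interval -1.18 to 0.50) and 1.78 (1.17 to 2.47). Pygo1, which binds the β-catenin partner Bcl9, had 96, 109 and 205 reads, with ratios of -0.05 (-0.45 to 0.37) and 0.98 (0.63 to 1.35). Bcl9l had 133, 199 and 248 reads, with ratios of 0.35 and 0.79. Aes, a short Groucho family protein, had 531, 854 and 834 reads, with ratios of 0.46 and 0.54.

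Of 16 tested genes of planar polarity and the β-catenin-independent branch, 0 were past 1.5-fold in KD-1, and 2 were past it higher and 1 lower in KD-2. Of all genes, 14.2% were past it in KD-1, and 17.1% were higher and 10.2% lower in KD-2; with so few genes the shares here are not read as a difference. Ror2, a Wnt5a receptor, had 451, 691 and 1022 reads, with ratios of 0.39 (0.21 to 0.56) and 1.07 (0.91 to 1.24), so it was higher in KD-2 as Wnt5a was, at 1369, 1474 and 2877 reads. Ptk7 had 6456, 6956 and 11067 reads, with ratios of -0.12 and 0.67. Prickle3 had 7060, 6141 and 4425 reads, with ratios of -0.43 and -0.78.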
